A study of Homo sapiens with 10 samples.

Results

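Poly(A)-binding proteins and translation termination factors are described here by 5 human genes: PABPC1 and PABPC4, which encode cytoplasmic poly(A)-binding proteins, GSPT1 and ETF1, which encode the release factors eRF3 and eRF1, and ABCE1, which encodes the ribosome recycling factor. Their rows were taken by Ensembl gene identifier and gave 1529 of the 657165 listed positions per isoform, from 5 of 10631 genes. The genes were selected on function, by a proposal made with the edited reads of PABPC1 in HEK293T and the coverage of PABPC1 and GSPT1 under CoCl2 in view. The study used Ribo-STAMP with long-read sequencing of polyadenylated RNA. A doxycycline-induced fusion of a ribosomal protein to the cytidine deaminase APOBEC1 leaves C-to-U edits on mRNA near ribosomes, and APOBEC1 alone gives the background of the free enzyme. In HEK293T, a human embryonic kidney line, 3 libraries expressed Ribo-STAMP and 3 expressed APOBEC1-only, all after 72 h with 1 µg/mL doxycycline. In MDA-MB-231 cells, which derive from triple-negative breast cancer, all 4 libraries expressed Ribo-STAMP after 48 h with 1 µg/mL doxycycline. Of these, 2 were also exposed to 100 µM cobalt(II) chloride (CoCl2), a chemical used to mimic hypoxia, for 48 h, and 2 were left untreated. The 2 lines were prepared with different library kits and are not tested against each other. Nothing in the labels says whether replicates were separate cultures, so each p-value measures the spread between these libraries, which may be technical.

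The poly(A)-binding protein coats the mRNA tail and binds the cap complex through eIF4G, which brings both ends of the message together, and it also contacts eRF3 at the stop codon. eRF1 reads the stop codon and releases the peptide with the help of the GTPase eRF3, after which the ATPase ABCE1 splits the ribosome into subunits. PABPC1 mRNA is known as a terminal oligopyrimidine message whose own translation is tightly controlled, while PABPC4 is the inducible relative of PABPC1.

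The listed positions with the most edited reads over the 4 MDA-MB-231 libraries are given as examples of edits on these messages. They are printed for PABPC4, GSPT1, ETF1 and ABCE1 as 21 transcript bases of the GENCODE 29 annotation, in GRCh38 coordinates, from 5′ to 3′, with the edited C in capitals.
PABPC4, chr1:39562114-39562134, minus strand, exon 14: tggagatagaCaactctgagc
PABPC4, chr1:39562367-39562387, minus strand, exon 13: gcaggagccaCtgactgcctc
PABPC4, chr1:39563655-39563675, minus strand, exon 12: ttgccccctaCaaatacgcct
GSPT1, chr16:11886510-11886530, minus strand, exon 9: ctgctcaggaCttactggagc
GSPT1, chr16:11915636-11915656, minus strand, exon 1: gcagcagcgaCtcggcgcctg
GSPT1, chr16:11915501-11915521, minus strand, exon 1: ggcaactcaaCgtcaacgcca
ETF1, chr5:138512793-138512813, minus strand, exon 6: gatccgctgaCtttaaaactg
ETF1, chr5:138512946-138513579, minus strand, C in exon 5, with an intron spliced out of the window: caaagaaacaCggtagaggag
ETF1, chr5:138511130-138511150, minus strand, exon 8: gttgaagataCactaaaggct
ABCE1, chr4:145123029-145123049, plus strand, exon 14: tcgccagttaCtacatgaaaa
ABCE1, chr4:145127542-145127562, plus strand, exon 18: agagtggaaaCtactttttct
ABCE1, chr4:145125033-145125053, plus strand, exon 17: cttgaaattaCattcagaaga
Together with the 3 leading positions of PABPC1, these made 15 positions, and all 15 had an A before the edited C. The edit would keep the encoded amino acid at 11 of the 15. The leading positions are not typical in this. Over all edited reads on the main isoform of each member, 62.8% to 71.1% followed an A and 37.2% to 51.2% kept the amino acid. All 15 lie in coding exons, since the files hold coding positions.

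Edited reads are summed over positions, so a read edited at several positions counts several times. The HEK293T libraries held 50908 to 65792 edited reads with Ribo-STAMP and 2971 to 3498 with APOBEC1-only, and the MDA-MB-231 libraries held 155572 to 177069. All 8 markers of MDA-MB-231, among them VIM and CD44, were listed in each of the 4 MDA-MB-231 libraries, while no HEK293T library listed more than 1 of them. HEK293T markers did not separate the lines: of 6, the HEK293T libraries listed 1 to 4 and the MDA-MB-231 libraries 1 to 3, and NEFL and PEG10 were listed in none of the HEK293T libraries. A position is listed only where at least 1 read was edited, and no position was listed in every library of a line.

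The first comparison asks how far ribosome-directed editing of these messages stands above the free enzyme in HEK293T. PABPC1, GSPT1, ETF1 and ABCE1 had more edited reads in every Ribo-STAMP library than in any APOBEC1-only library. This is not particular to them, since limma called 99.7% of 654 tested genes higher with Ribo-STAMP. PABPC4 was hardly seen. PABPC1 was the most edited of the 5, and its values are given as a description because they were known when the genes were chosen. Counts were divided by each library's relative depth, estimated from the coverage of isoforms listed in every library of the line.

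PABPC1 had 145, 209 and 588 depth-scaled edited reads in Ribo-STAMP replicates 1, 2 and 3, against 10.1, 3.93 and 25.2 in APOBEC1-only replicates 1, 2 and 3. Replicate 3 was the highest in both groups, and the groups did not overlap. Covering reads moved with it: PABPC1 was covered by 461, 410 and 971 reads with Ribo-STAMP and by 449, 399.5 and 939 with APOBEC1-only. Its log2 change was 4.54 (SE 0.54).

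PABPC4 had 5, 3 and 1 edited reads in the Ribo-STAMP libraries and none in the 3 APOBEC1-only libraries. The gene did not reach the minimum of 10 edited reads in 3 libraries, so it was not tested with the others.

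GSPT1, the GTPase eRF3, had 25.6, 19.8 and 15.0 depth-scaled edited reads in the Ribo-STAMP libraries and 0, 0.982 and 0 in the APOBEC1-only libraries. ETF1, the stop codon reader eRF1, had 8.52, 11.4 and 26.2 in the Ribo-STAMP libraries and 1.84, 0 and 0 in the APOBEC1-only libraries. Neither gene's groups overlapped, and the single APOBEC1-only library with ETF1 edits held 2 edited reads, both at 1 position. ABCE1, the recycling ATPase, had 42.6, 44.7 and 56.2 in the Ribo-STAMP libraries and 0.919, 0.982 and 1.20 in the APOBEC1-only libraries, which is 1 edited read in each. Its Ribo-STAMP replicates lay closer together than those of PABPC1 or ETF1.

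On log2(depth-scaled edited reads + 1), limma with Benjamini-Hochberg adjustment over 654 genes gave changes of 4.04 for GSPT1 (SE 0.49, adjusted p = 2.89e-10), 3.38 for ETF1 (SE 0.47, adjusted p = 5.76e-09) and 4.58 for ABCE1 (SE 0.61, adjusted p = 2.42e-09). These 3 genes rose, but so did 99.7% of the genes tested, with a median change of 3.75, so the count is near the background. The filter also favours genes that are high with Ribo-STAMP, since 10 edited reads are seldom reached without the fusion. GSPT1, ETF1 and ABCE1 reached 10 edited reads in Ribo-STAMP libraries alone. Their rise was thus favoured beforehand by the filter, and their adjusted p are not support for it. Scaling libraries on the edited reads themselves by TMM took out most of the shared rise and left a median change of 0.75. None of the 4 tested genes was then past the threshold, against 3.82% of all genes.

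**Figure D1:**
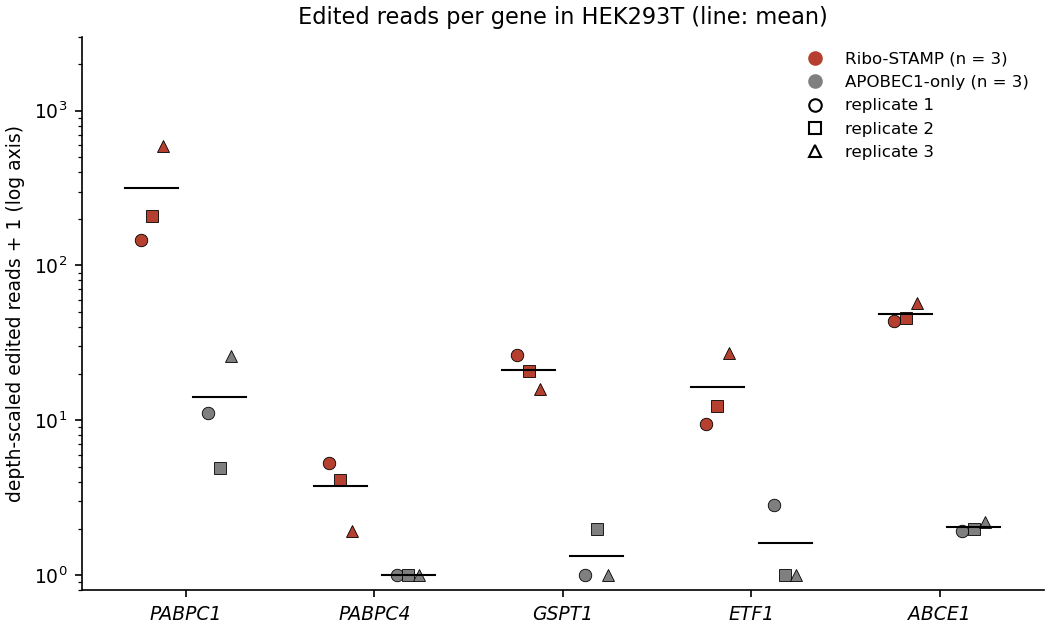
Depth-scaled edited reads per gene plus 1, on a log axis, in the 3 Ribo-STAMP and 3 APOBEC1-only libraries of HEK293T; marks are libraries and lines are means. PABPC1, GSPT1, ETF1 and ABCE1 are separated between the groups, and PABPC4 lies near the floor in both.

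Editing per covering read could be compared for PABPC1 and ABCE1, which had an isoform listed in all 6 HEK293T libraries. PABPC1 in the Ribo-STAMP libraries had 36.9, 49.0 and 64.7 edited reads for each 100 covering it, against 2.45, 1.00 and 2.24 with APOBEC1-only. ABCE1 had 19.2, 30.3 and 50.4 with Ribo-STAMP, against 0.725, 0.758 and 1.85 with APOBEC1-only. The replicates of Ribo-STAMP spread widely in both genes and stayed above every APOBEC1-only library.

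ABCE1 rose by 4.37 on the log2 ratio of edited to unedited reads (SE 0.47, limma adjusted p = 7.78e-07), and 95.7% of the 392 genes tested rose. Set against the median gene of each library, the difference of ABCE1 was 1.00 and was not past the threshold (adjusted p = 0.0909), where 18.6% of the genes were higher and 13.5% lower. PABPC1 changed by 4.71 (SE 0.34) on the same scale, given as a description.

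GSPT1 and ETF1 could be described with Ribo-STAMP alone. GSPT1 had 33.7 ± 2.66 edited reads per 100 covering reads (SD, n = 3), ETF1 17.6 ± 8.54, ABCE1 33.3 ± 15.8 and PABPC1 50.2 ± 13.9. Only GSPT1 had replicates within a few reads of each other.

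Messages differ in how many C they offer, so the level per C was also computed, as edited reads per 1000 products of coding C and covering reads. The coding C of the GENCODE 29 isoform with the same identifier was used for HEK293T. With Ribo-STAMP, PABPC1 had 0.811, 1.08 and 1.42 in replicates 1, 2 and 3, and GSPT1 had 0.851, 0.747 and 0.867, while the median over 1836 genes was 0.636, 0.650 and 0.638. ETF1 had 0.465, 0.627 and 1.16, and ABCE1 had 0.609, 0.958 and 1.60. ETF1, ABCE1 and PABPC1 were each highest in replicate 3, where ABCE1 lay above 90.0% of the genes, although the median gene hardly differed between replicates. ETF1 was below PABPC1 and below ABCE1 in each of the 3 libraries, although the ranges of the 4 members over libraries overlapped. PABPC4 was covered too thinly for a value.

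The second comparison asks what 48 h of CoCl2 did to these messages in MDA-MB-231. Coverage of all 5 was lower in both CoCl2 libraries than in either untreated library, and lower by more than at the median gene. Among all 5661 genes tested, limma called 19.1% lower and 24.5% higher. The share of all genes whose groups lay apart is not given, for coverage or for edited reads, so non-overlap is a description only. Coverage here counts reads on isoforms listed in all 4 libraries, scaled by TMM, and an isoform is listed only where it is edited. In bulk libraries, fewer cells that carry a message and less of it per cell cannot be told apart.

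PABPC1 had 227 and 184 scaled covering reads in CoCl2 replicates 1 and 2, against 701 and 469 in untreated replicates 1 and 2. GSPT1 had 108 and 106 in the CoCl2 libraries, against 439 and 219 in the untreated libraries. The CoCl2 libraries lay close together and the untreated libraries far apart. Their log2 changes were -1.48 (SE 0.22) for PABPC1 and -1.53 (SE 0.27) for GSPT1; the coverage of both under CoCl2 was known when the genes were chosen, so these are descriptions and no p is given for either gene in this contrast.

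PABPC4 had 31.9 and 25.7 scaled covering reads in the CoCl2 libraries, against 75.6 and 41.5 in the untreated libraries. ETF1 had 172 and 177 in the CoCl2 libraries, against 388 and 272 in the untreated libraries. ABCE1 had 91.5 and 85.1 in the CoCl2 libraries, against 258 and 159 in the untreated libraries. In these 3 genes too, untreated replicate 1 was the highest library and the groups did not overlap.

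limma on log2(scaled coverage + 1) over 5661 genes gave changes of -0.95 for PABPC4 (SE 0.34, adjusted p = 0.0290), -0.89 for ETF1 (SE 0.23, adjusted p = 0.00522) and -1.19 for ABCE1 (SE 0.26, adjusted p = 0.00233). All 3 fell, as did 19.1% of the genes tested, and the median change of all genes was -0.03. An exact permutation test of 2 against 2 libraries cannot give a p below 0.333, so these calls rest on the spread shared across genes by limma. Without CoCl2 replicate 1, or without CoCl2 replicate 2, none of the 5 was past the threshold, and at most 2 of all genes were. Without untreated replicate 1, PABPC4 changed by -0.52 and was not past the threshold (adjusted p = 0.220).

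**Figure D2:**
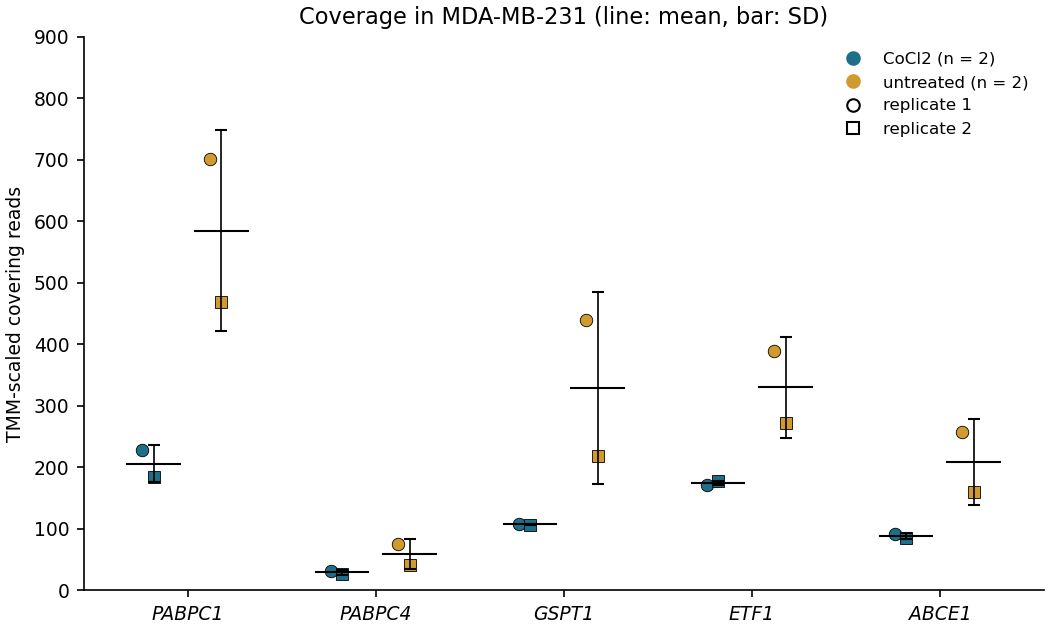
TMM-scaled covering reads of the 5 genes in the 2 CoCl2 and 2 untreated libraries of MDA-MB-231; marks are libraries, horizontal lines means and bars SD. CoCl2 libraries are below untreated libraries in each gene, and untreated replicate 1 lies above untreated replicate 2.

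The 2 untreated libraries differed in the same direction in all 5 genes. On the log2 scale, untreated replicate 2 minus untreated replicate 1 was -0.58 for PABPC1, -0.85 for PABPC4, -1.0 for GSPT1, -0.51 for ETF1 and -0.69 for ABCE1, while the median over all genes was -0.00155. The same difference between the CoCl2 replicates lay between -0.30 and 0.04 in the 5 genes. For PABPC4 this gap was close in size to its change with CoCl2, -0.95, and for GSPT1 it was smaller than its change, -1.53.

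Transcript length moved with the change in coverage across all genes, and the 5 messages are long. Genes were split into 4 equal groups by the coverage-weighted length of their transcripts. The median log2 change was 0.83 in the shortest group, 0.18 and -0.50 in the middle groups and -0.59 in the longest. PABPC4 (2831 bases), PABPC1 (3472 bases) and ETF1 (3742 bases) were in the third group, and ABCE1 (3921 bases) and GSPT1 (7075 bases) in the longest. In these groups 31.2% and 31.9% of genes fell, against 0.991% in the shortest.

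With the trend on length taken out in each library, the changes were -1.07 for PABPC1, -0.67 for PABPC4, -0.99 for GSPT1, -0.45 for ETF1 and -0.73 for ABCE1. ABCE1 kept its call (limma adjusted p = 0.0214), whereas PABPC4 (adjusted p = 0.118) and ETF1 (adjusted p = 0.0777) were no longer past the threshold. After that step 8.91% of 5648 genes fell. What sets the length trend was not tested.

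**Figure D3:**
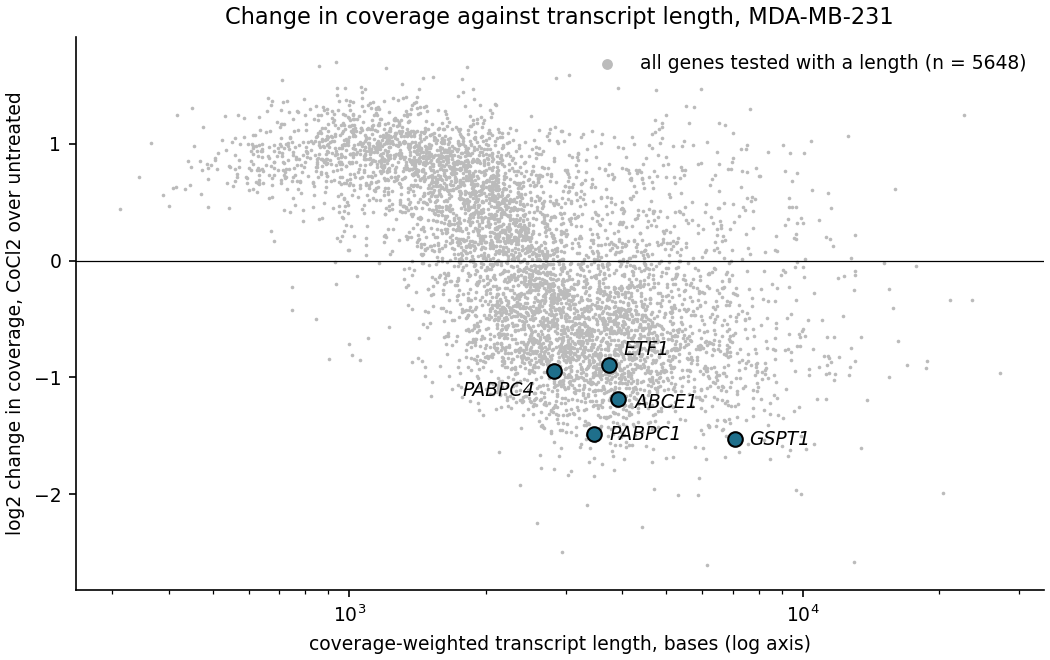
Log2 change in coverage, CoCl2 over untreated, against coverage-weighted transcript length on a log axis, for the genes tested in MDA-MB-231 (grey) and the 5 members (blue). Short transcripts lie mostly above 0 and long ones mostly below, and the 5 members lie between -0.89 and -1.53.

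Edited reads of these messages were lower with CoCl2 as well, less evenly. PABPC1 had 57.5 and 26.0 depth-scaled edited reads in the CoCl2 libraries, against 179 and 115 in the untreated libraries, a log2 change of -1.86 (SE 0.40). GSPT1 had 34.9 and 45.5 in the CoCl2 libraries, against 168 and 81.0 in the untreated libraries, a log2 change of -1.53 (SE 0.38). In neither gene did the groups overlap.

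ABCE1 had 28.8 and 41.2 depth-scaled edited reads in the CoCl2 libraries, against 106 and 68.6 in the untreated libraries. PABPC4 had 10.3 and 7.59 in the CoCl2 libraries, against 35.9 and 16.2 in the untreated libraries. ETF1 had 45.2 and 36.8 in the CoCl2 libraries, against 66.1 and 50.5 in the untreated libraries. The groups were apart in each of the 3, with the narrowest gap in ETF1.

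By limma over 4097 genes, ABCE1 fell by 1.28 on the log2 scale (SE 0.35, adjusted p = 0.0368), while PABPC4 changed by -1.36 (SE 0.50, adjusted p = 0.0759) and ETF1 by -0.49 (SE 0.34, adjusted p = 0.290). Among all genes 2.9% fell and 12.1% rose, with a median change of 0.19. The call of ABCE1 was lost without CoCl2 replicate 1 (adjusted p = 0.309), without CoCl2 replicate 2 (adjusted p = 0.140), with positions under 20 covering reads left out (adjusted p = 0.0641), with no filter on low values (adjusted p = 0.222), with edited positions counted in place of edited reads (adjusted p = 0.0524), and with the length trend taken out (adjusted p = 0.104), where 1.47% of 4089 genes fell and 1.98% rose.

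Editing per covering read, which sets edited reads against the coverage of the same isoforms, showed no call in any of the 5. PABPC1 had 25.3 and 13.0 edited reads per 100 covering reads in the CoCl2 libraries, against 25.2 and 23.9 in the untreated libraries. GSPT1 had 32.4 and 43.3 in the CoCl2 libraries, against 38.3 and 35.8 in the untreated libraries. For GSPT1 the CoCl2 libraries lay on both sides of the untreated pair, and for PABPC1 only CoCl2 replicate 2 stood below it.

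PABPC4 had 32.3 and 21.3 edited reads per 100 covering reads in the CoCl2 libraries, against 42.5 and 27.3 in the untreated libraries. ABCE1 had 31.5 and 48.7 in the CoCl2 libraries, against 41.0 and 42.7 in the untreated libraries. ETF1 had 26.3 and 21.0 in the CoCl2 libraries, against 17.0 and 18.4 in the untreated libraries. ETF1 was the single member whose groups did not overlap on this measure, with both CoCl2 libraries above both untreated libraries. The share of all genes whose groups lay apart on it is not given. The median difference over 5673 genes, on the log2 ratio below, was itself 0.20.

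On the log2 ratio of edited to unedited reads, the limma difference was 0.42 for ETF1 (SE 0.25, adjusted p = 0.648), -0.08 for ABCE1 (SE 0.32, adjusted p = 0.949) and -0.33 for PABPC4 (SE 0.50, adjusted p = 0.874). It was -0.42 for PABPC1 (SE 0.31) and 0.03 for GSPT1 (SE 0.27). Of 5673 genes, 0% were called in either direction by limma, also with coverage weights, and 484 had an unadjusted p under 0.05, none of them a member. The SEs of the members leave room for differences in either direction, so the test does not show that editing per read was alike.

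**Figure D4:**
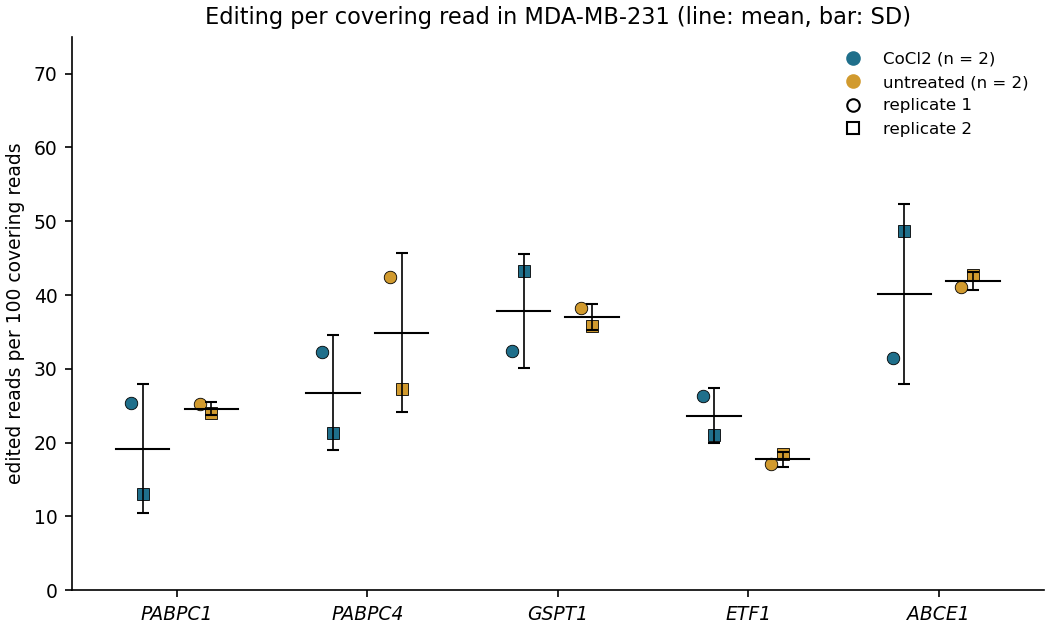
Edited reads per 100 covering reads of the 5 genes in the 2 CoCl2 and 2 untreated libraries of MDA-MB-231; marks are libraries, horizontal lines means and bars SD. The groups overlap or touch in all genes except ETF1, where the CoCl2 libraries (26.3 and 21.0) lie above the untreated libraries (17.0 and 18.4).

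The 5 messages offered different numbers of coding C. PABPC4 had 501, PABPC1 455, GSPT1 410, ABCE1 316 and ETF1 234 on the isoform with the most coverage. Per C and covering read, in edited reads per 1000 products of coding C and covering reads, ABCE1 had 1.27 ± 0.386 with CoCl2 and 1.32 ± 0.0381 in untreated cells (SD, n = 2 each). GSPT1 had 0.923 ± 0.188 with CoCl2 and 0.903 ± 0.0432 in untreated cells, and ETF1 had 1.01 ± 0.162 with CoCl2 and 0.757 ± 0.0414 in untreated cells. PABPC4 had 0.522 ± 0.239 with CoCl2 and 0.634 ± 0.0907 in untreated cells.

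PABPC1 had the lowest level per C, at 0.557 and 0.286 in the CoCl2 libraries and 0.554 and 0.526 in the untreated libraries. It lay at the 35.6th and 12.7th percentile of 4870 genes in the CoCl2 libraries and at the 44.0th and 40.2nd in the untreated libraries. In both untreated libraries the order was ABCE1, GSPT1, ETF1, PABPC4 and PABPC1, and the gap between PABPC4 and each of its neighbours in that order was smaller than the sum of their SDs, while the gaps between ABCE1, GSPT1 and ETF1 were larger. With CoCl2 the order of the means was ABCE1, ETF1, GSPT1, PABPC4 and PABPC1, and no gap between neighbours was larger than the sum of their SDs, although PABPC4 and then PABPC1 were lowest in both CoCl2 libraries.

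APOBEC1 prefers a C that follows A or U, and edits on the 5 messages followed that preference. After A or U stood 91.4% of the edited reads of PABPC1, 93.0% of PABPC4, 87.2% of GSPT1, 93.5% of ETF1 and 94.8% of ABCE1. The coding C with A or U before it made up 46.2%, 39.5%, 40.2%, 61.1% and 55.7% of all coding C in the same genes in that order. The preference is not particular to them. Over all 4870 genes placed, 82.4% to 83.8% of the edited reads of a library followed A or U, beside 42.5% of the coding C. Counted over such C alone, the median gene had 1.54 and 1.44 edited reads per 1000 products in the CoCl2 libraries and 1.23 and 1.27 in the untreated libraries. ABCE1 had 1.66 and 2.70 in the CoCl2 libraries and 2.21 and 2.29 in the untreated libraries. GSPT1 had 1.56 and 2.44 in the CoCl2 libraries and 2.06 and 1.83 in the untreated libraries. ETF1, with the largest share of such C, had 1.80 and 1.34 in the CoCl2 libraries and 1.07 and 1.24 in the untreated libraries, so on this count it was close to PABPC1 in untreated cells, at 1.08 and 1.07.

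Edits were thin at each listed position. Over the 4 MDA-MB-231 libraries, 168 positions were edited in PABPC1, 142 in GSPT1, 126 in ABCE1, 95 in ETF1 and 48 in PABPC4. On the main isoform these were 36.9% of the coding C of PABPC1, 34.4% of GSPT1, 39.9% of ABCE1, 40.6% of ETF1 and 6.79% of PABPC4, whose coverage is the lowest. Between 70.8% and 88.5% of the entries of a member rested on a single edited read. No member had more than 20 positions listed in 3 libraries, the number found in PABPC1 and in GSPT1. No position of any gene in this line was listed in more libraries, so this limit is not particular to the members. Whether positions edited in all 4 libraries were left out of the lists was not tested.

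The leading GSPT1 position, in exon 9, was edited in 8 of 465 reads (1.72%, exact 95% interval 0.746% to 3.36%) in untreated replicate 1. In untreated replicate 2 it was edited in 4 of 237 reads (1.69%, 0.462% to 4.26%). It was listed in neither CoCl2 library, where its isoform was covered by only 105 and 97 reads. No interval was computed there, so a loss with CoCl2 is not shown. The leading ABCE1 position, in exon 14, was edited in 4 of 79 reads (5.06%, 1.40% to 12.5%) in CoCl2 replicate 2 and in 4 of 282 reads (1.42%, 0.388% to 3.59%) in untreated replicate 1. It was not listed in CoCl2 replicate 1 or untreated replicate 2. The leading ETF1 position, in exon 6, was edited in 2 of 167 reads in CoCl2 replicate 1, and in 5 of 411 and 2 of 288 reads in untreated replicates 1 and 2. It was not listed in CoCl2 replicate 2. At the ABCE1 and ETF1 positions the intervals of the listed libraries overlapped between groups, and they cover counting error only.

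In HEK293T, 220 positions of PABPC1 were edited. Of these, 207 were listed with Ribo-STAMP, 29 with APOBEC1-only and 16 with both, and 54 were listed in all 3 Ribo-STAMP libraries. No other member had more than 7 positions listed in all 3, the number reached by ABCE1. The leading PABPC1 position was edited in 3 of 461, 5 of 410 and 17 of 971 reads in Ribo-STAMP replicates 1, 2 and 3, and in 1 of 449 and 2 of 939 reads in APOBEC1-only replicates 1 and 3.

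Along the coding sequence, edits departed from the spread of C in GSPT1 and PABPC4. All coding C were counted here. Edited reads of the 4 MDA-MB-231 libraries were pooled, and a read edited at several positions counts several times. The intervals treat edited reads as independent and cover counting error only. C after A or U, where most edits fell, were not counted by stretch. With each coding sequence cut into 3 equal stretches, the middle one of GSPT1 held 39.2% of the edited reads and 25.4% of the coding C. In PABPC4 the last stretch held 65.1% of only 43 edited reads (exact 95% interval 49.1% to 79.0%), with 42.3% of the C. Listed positions of this PABPC4 isoform were covered by 16 to 35 reads in untreated replicate 2, and uneven coverage was not corrected for. In PABPC1, ETF1 and ABCE1 each stretch held a share of edited reads within 6 percentage points of its share of C. PABPC1 was the member with most edits that would make a stop codon, 40 of 384 edited reads (10.4%, exact 95% interval 7.55% to 13.9%), beside 10.1% of its C. GSPT1 had 10 of 337 (2.97%, 1.43% to 5.39%), beside 4.39% of its C. Over all 4870 genes placed, 5.34% to 5.52% of the edited reads of a library would make a stop codon, beside 7.05% of the coding C.

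**Figure D5:**
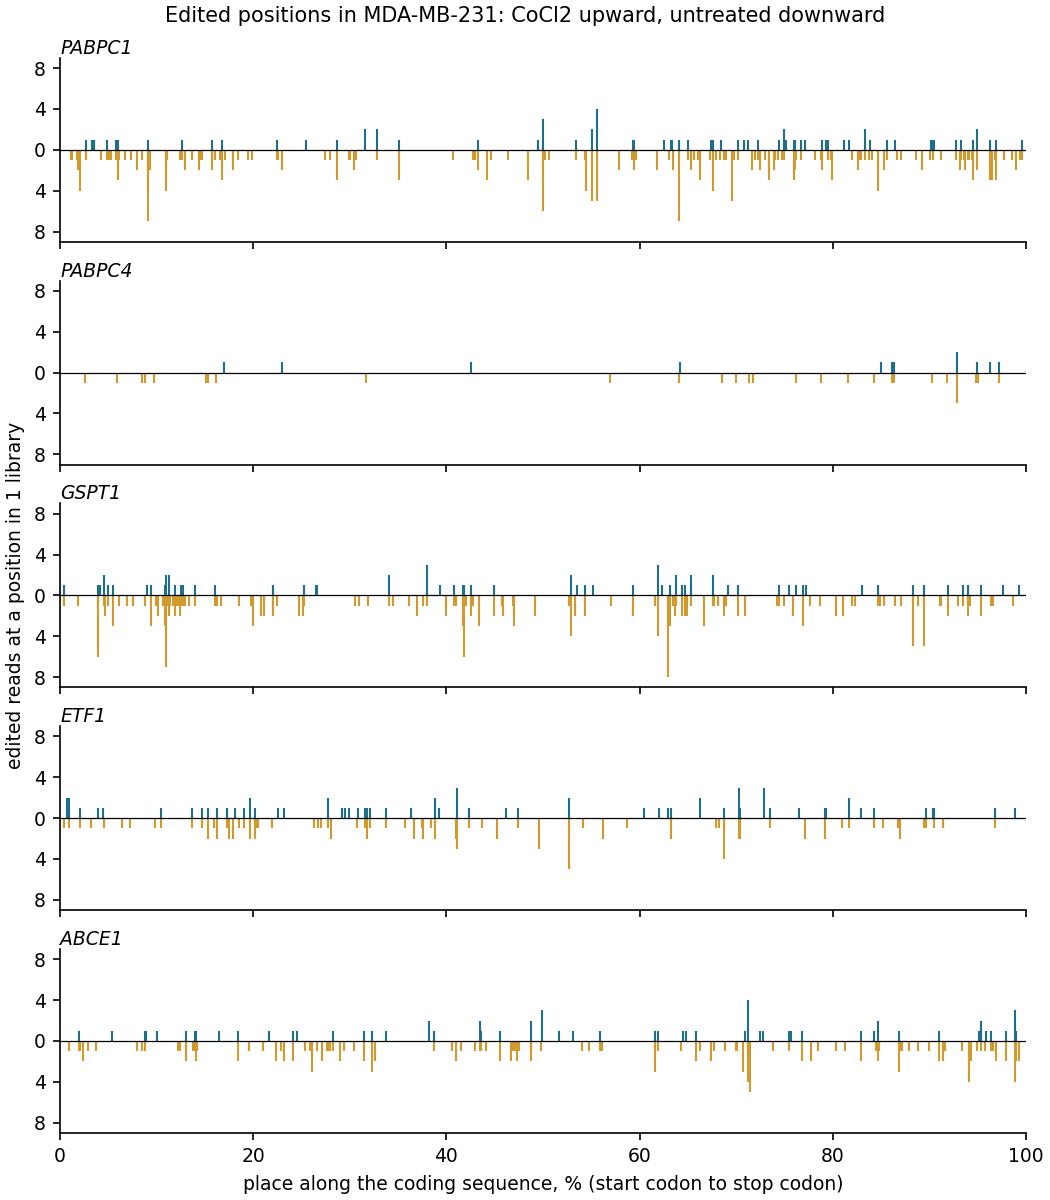
Edited reads at each edited position in 1 library, along the coding sequence from start to stop codon in percent, with CoCl2 libraries drawn upward and untreated libraries downward. Most positions hold a single edited read, and no position of the 5 genes holds more than 8 in a library.

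Each member except PABPC4 was read mostly from 1 isoform. PABPC4 was spread over ENST00000372858, covered by 26 and 17 reads in the CoCl2 libraries and by 60 and 35 in the untreated libraries, and ENST00000372857, covered by 5 and 6.5 in the CoCl2 libraries and by 20 and 9 in the untreated libraries. Another isoform, ENST00000372856, was listed in the untreated libraries alone, with 12 and 18 reads. Close copies limit which gene a read is given to: the coding sequences of PABPC1 and PABPC4 were identical at 74.3% of aligned bases and those of GSPT1 and GSPT2 at 88.8%. GSPT2, another gene for eRF3, had 19 and 1 edited reads in the CoCl2 libraries and 11 and 5 in the untreated libraries, beside 34 and 42 for GSPT1 in the CoCl2 libraries and 178 and 85 in the untreated libraries.

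Over the 10 libraries, other genes were ranked by how closely their depth-scaled edited reads followed each member, as a Euclidean distance on the log2 scale after centring within each line, among 552 genes. PABPC1 was closest to PYGL (1.33), EIF2S3 (1.46) and RBBP4 (1.67), against a median distance of 3.38. GSPT1 was closest to POLG (0.953), SLC30A5 (1.01) and MTHFD1 (1.03), against a median of 2.19. ETF1 was closest to RBBP7 (1.08), QARS1 (1.15) and HNRNPA1 (1.18), against a median of 2.50. ABCE1 was closest to MTHFD1 (0.784), HNRNPK (0.803) and YWHAQ (0.808), against a median of 2.17. MTHFD1 was near both GSPT1 and ABCE1.

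Partners of these factors were counted from 4 lists of 82 genes, without the members. In HEK293T edited reads all tested list genes rose with Ribo-STAMP: 7 of 7 partners of the poly(A) tail and cap complex, 2 of 2 deadenylation genes, 2 of 2 termination and nonsense-mediated decay genes and 3 of 3 recycling and rescue genes, beside 99.7% of all genes. Among the list genes with the lowest adjusted p were the ubiquitin ligase MKRN1 (log2 change 3.15), the deadenylase PARN (3.51), CNOT1, the scaffold of the CCR4-NOT deadenylase (3.33), the export and termination factor GLE1 (3.38), the helicase DDX19A (2.82), the ATPase VCP (4.32) and ASCC3, a helicase that takes apart collided ribosomes (4.61). Per covering read the tested list genes were fewer, 3, 1, 1 and 2 in the same order of lists, and each rose, beside 95.7% of all genes. Among those of lowest adjusted p were the cap complex factor EIF4B (4.28), CNOT1 (3.38), GLE1 (3.87), VCP (4.12) and HBS1L, which acts on stalled ribosomes (4.53).

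With CoCl2, coverage of the tail and cap partners fell in 5 and rose in 1 of 12 tested genes, with a median log2 change of -0.56. EIF4A1, a helicase of the cap complex, rose by 0.68 (SE 0.18, limma adjusted p = 0.00601). In the deadenylation list 3 of 8 fell and none rose, led by CNOT11 (-2.24) and CNOT10 (-1.47), subunits of CCR4-NOT. In the termination and decay list 2 of 11 fell and 1 rose, with TRMT112, the partner of the methyltransferase that modifies eRF1, at 1.01 and DDX19A at -1.18. In the recycling and rescue list 5 of 20 fell and 6 rose, with EIF6, which keeps ribosomal subunits apart, at 1.21 and NUBP1, an iron-sulphur cluster assembly factor, at 1.27. Among all genes 19.1% fell and 24.5% rose. With the length trend taken out, the 4 lists had 2, 2, 1 and 1 genes lower and 0, 0, 3 and 2 higher. Of the genes named here, CNOT11 (-2.05), CNOT10 (-1.21), DDX19A (-0.85) and EIF6 (0.54) were then still past the threshold. EIF4A1 (0.33, limma adjusted p = 0.0786), TRMT112 (0.21, adjusted p = 0.387) and NUBP1 (0.57, adjusted p = 0.107) were not.

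In edited reads, 2 genes of the 4 lists passed the threshold with CoCl2, while 12.1% of all genes were called higher and 2.9% lower. None of 11 tail and cap partners and none of 5 deadenylation genes passed the threshold, and the lowest adjusted p were those of EIF4A1 (log2 change 0.70, limma adjusted p = 0.106), PAIP1 (-0.69, 0.139), CNOT1 (-1.26, 0.153) and CNOT10 (-0.95, 0.170). In the termination and decay list 1 of 9 passed, TRMT112, which rose by 1.85 (adjusted p = 0.0328), beside SMG9 at 1.03 (adjusted p = 0.0523). In the recycling and rescue list 1 of 16 passed, EIF6, which rose by 1.67 (adjusted p = 0.0298), beside VCP at -0.89 (adjusted p = 0.0541). With the length trend taken out, neither TRMT112 (0.72, adjusted p = 0.338) nor EIF6 (0.69, adjusted p = 0.173) was past the threshold, and SMG9 (1.45, adjusted p = 0.0391) was the 1 gene of the 4 lists that was. Of all genes, 1.98% were then called higher and 1.47% lower. Editing per covering read gave no call in the 4 lists, nor in any of 5673 genes by limma. The list genes of lowest adjusted p on that measure were PAIP2, an inhibitor of PABPC1 (log2 difference -1.17), MKRN1 (0.76), the deadenylase subunits CNOT11 (1.10) and CNOT8 (0.88), TRMT112 (0.90), SMG9 (0.59), the rescue factor PELO (-0.60) and EIF6 (0.44), and their adjusted p lay between 0.519 and 0.654.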

How the data were processed

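The authors deposited, per library, coding positions with at least 1 edited read, each giving an edited read count and a coverage per isoform. The names of the aligner and the caller were not given in the sources used here; the submitters' processing notes name hg19 and hg38. MDA-MB-231 positions lay on a C of the GRCh38 GENCODE 29 coding sequence in 417485 of 417502 entries, so coordinates are given for that line only. Gene symbols were matched for 10577 of 10631 identifiers. The assignment of reads shared by close copies is likewise not stated.

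Isoform coverage was the median over listed positions. For the ratio of edited to unedited reads, coverage was multiplied by the number of positions edited in any library of the line. Unedited reads were this product less the edited reads. Relative depth was the median ratio over 405 (HEK293T) and 7313 (MDA-MB-231) isoforms listed in every library. Edited reads (at least 10 in 3 HEK293T or 2 MDA-MB-231 libraries) and coverage (mean at least 10, TMM trims 30% and 5%) were tested as log2(value + 1), and editing per read as the log2 ratio of edited to unedited reads with 0.5 added, by limma 3.58.1 with trend in R 4.3.3, Benjamini-Hochberg threshold 0.05 over all genes. Scripts were tested on simulated data. No count model was used, because edited reads are given only beside their coverage. Position intervals are exact binomial at 95%; PCR copies were not separable.

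Members and lists were chosen with earlier results of these data known. Named genes were the 5 members, the 2 tested list genes of lowest adjusted p per list and comparison, the 3 most alike genes per member and the 3 most edited positions; 1 list gene that the rule names is not reported here.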

Additional observations from a re-analysis of the deposited data

How the results depend on the processing

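The number of members past the threshold was recomputed under each alternative, with PABPC1 and GSPT1 counted although their values are descriptions; 1 of them, the length trend taken out of MDA-MB-231 edited reads, was chosen after seeing the data. For HEK293T edited reads, 4 members rose, beside 99.7% of all genes, and 0 did under TMM of edited reads, beside 3.82%. For HEK293T editing per covering read, 2 rose, beside 95.7% of all genes. With each library centred on its median gene 1 did, where 73 of 392 genes were higher and 53 lower. For MDA-MB-231 edited reads, 3 changed, against 0 with no filter, 0 with only positions covered by at least 20 reads and 1 with the length trend taken out. Of all genes, 12.1% were higher and 2.9% lower in the main fit, and 1.98% and 1.47% with that trend taken out. For MDA-MB-231 coverage, 5 changed, against 3 with the length trend taken out. Of all genes, 24.5% were higher and 19.1% lower in the main fit, and 10.3% and 8.91% with that trend taken out. Of PABPC4, ETF1 and ABCE1, the members with a test in this contrast, only ABCE1 kept its call. For MDA-MB-231 editing per covering read, 0 changed under every alternative run. Leaving out 1 library at a time gave 4 to 4 and 2 to 2 members in HEK293T, 0 to 4 for MDA-MB-231 edited reads, 0 to 5 for coverage and 0 to 0 per covering read; a lone library is then assumed to vary like the other group. Directions turned round only in MDA-MB-231 editing per covering read, where no call was made. There GSPT1 was at -0.17 with each library centred on its median gene, and leaving out 1 library at a time gave -0.89 to 0.0527 for PABPC1, -0.66 to 0.00247 for PABPC4, -0.18 to 0.24 for GSPT1 and -0.40 to 0.23 for ABCE1; the cause was not tested.

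Whether the replicate numbers pair the libraries differed by quantity. Same-numbered deviations correlated at 0.0872, 0.120 and 0.332 in HEK293T edited reads, 0.131, 0.0356 and 0.224 in HEK293T editing per covering read, and 0.0228 and 0.00381 in MDA-MB-231 edited reads and coverage, so not every pair was over 0.1 in these. In HEK293T coverage, which was not tested, they correlated at 0.227, 0.417 and 0.575, beside 0.441 and 0.576 between replicates numbered 1 and 2. Not every HEK293T library correlated best with its own number. With the replicate number as a block, 4 and 2 members rose in HEK293T, and 4, 5 and 0 changed in MDA-MB-231 edited reads, coverage and editing per covering read, where PABPC4 edited reads were past the threshold (limma adjusted p = 0.0303). The block moved the genes with fewer edited reads from 119 to 305 and those with more from 495 to 783. The low coverage of PABPC4 and the 2 libraries per group in MDA-MB-231 limit what can be called.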
